A study of Drosophila melanogaster with 3 samples.

Results

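The olfactory receptor (Or), gustatory receptor (Gr) and ionotropic receptor (Ir) genes of Drosophila melanogaster were examined in the midgut of EcR mutant larvae. The members were all genes with a family symbol followed by a cytological number and a letter, as the platform annotation gives it, and a value on every array. They were 105 of the 9756 named genes measured, with 48 Or, 21 Gr and 36 Ir genes, each represented by 1 probe. The Release 6 plus ISO1 MT annotation holds 60 Or, 60 Gr and 66 Ir symbols of this form, so the Gr family was covered least.

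The Or, Gr and Ir families bind the odours and tastes an insect meets. Or proteins are ligand-gated channels of olfactory neurons and need the co-receptor Orco. Gr proteins, which are related to them, detect sugars, bitter compounds and carbon dioxide, and some Gr genes are also known from enteroendocrine cells, the hormone-secreting cells of the gut epithelium. Ir proteins descend from glutamate receptors and pair a tuning subunit with a co-receptor such as Ir25a or Ir76b to sense acids, amines, salt, temperature and humidity.

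The larvae carried the alleles EcRM554fs/EcRV559fs, which remove the function of every EcR isoform, and were kept alive until they arrested at stage 2a, late in the third larval instar, by the heat shock inducible transgene hs-EcR-B230.1. EcR encodes the receptor for the molting hormone ecdysone. RNA of 3 independent mutant midgut samples, called replicates 3, 4 and 6 after their titles, was hybridised against a pool of midgut RNA from wild-type Canton S animals of various stages, which served as the common comparison on all arrays. The values are log2 ratios of mutant over pool, centred on the median of each array. This direction is likely from the channel order in the labels but is not stated in the value table. If it ran the other way, every sign and every "higher" and "lower" below would turn. No stage-matched wild-type midgut was hybridised, so genotype, stage, strain background and heat shock cannot be told apart, and in whole midgut fewer cells of a type and less RNA per cell cannot be told apart.

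A value was present for 18991 probes on replicate 3, 14097 on replicate 4 and 14069 on replicate 6, and the test covered 13026 features, which are named genes plus probes with no gene name of their own. The EcR probe gave log2 ratios of 1.72, 0.57 and 2.19 on replicates 3, 4 and 6, so the transcript was above the pool in a mutant that carries an EcR transgene, and the probe does not check the loss of function. Neither intensities nor backgrounds were used here. It is therefore unknown how many receptor probes were brighter than background, and a ratio near 0 does not show that a receptor was expressed. Both channels are labelled as midgut RNA, so a ratio cannot check which tissue was dissected or which cell types were present. Of 6 midgut epithelium genes tested, 5 were higher in the mutant and 0 lower (median log2 ratio 1.89), and GATAe at 0.012 did not pass. Of 7 neuronal genes 0 passed in either direction (median 0.027). Over all features 13.4% were higher and 23.7% lower.

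The receptor genes as a whole sat slightly above the centre of the arrays and close together. Their median log2 ratio was 0.093, against 0.0081 over all features. The interquartile range of the mean ratio was 0.12 for the receptors, against 0.32 for all features. The mean lay within 0.25 of 0 for 98 of the 105 receptors (93.3%), against 68% of all features. The mean was above 0 for 91 receptors and below 0 for 14, and 59 receptors (56.2%) were above 0 on every array, against 33.5% of all features. On the values as deposited, before centring, the receptor medians were 0.15, 0.14 and 0.19 on replicates 3, 4 and 6, against 0.043, 0.051 and 0.089 for all features. Centring subtracts a constant from an array, so this gap is the same on both scales, and the receptor median was above that of all features on each array.

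In the limma test of the mean ratio against 0, adjusted over all 13026 features, 14 of the 105 receptors were higher in the mutant, 5 were lower and 86 did not pass. Over all features 13.4% were higher and 23.7% lower. The share of receptors called higher (13.3%) was close to that background, and the share called lower (4.76%) was under it. The split of the calls depends on where 0 is set. As deposited 35 receptors were higher and 4 lower, with 23.3% and 21% of all features. When the arrays were centred on the receptors themselves (chosen after seeing the data), the counts were 3 and 8, with 7.38% and 32.2% of all features. Of the called receptors 2 also differed by 1.5-fold or more, both of them lower, and 0 were higher by that much (in limma 9.5% of all features were lower and 4.11% higher by this rule). An unadjusted limma p under 0.05 was found for 34 of the 105 receptors in either direction, a smaller share than the 6112 of 13026 features.

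**Figure D1:**
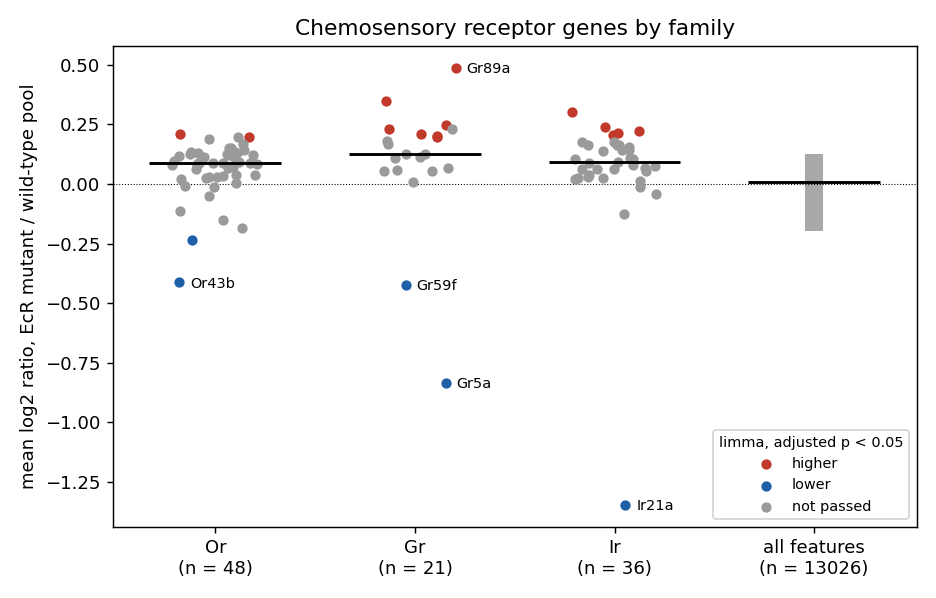
Mean log2 ratio of EcR mutant over wild-type pool (vertical axis) of each receptor gene, by family, with family medians as black lines; the grey bar gives the interquartile range of all 13026 features. Points are coloured by the limma call at an adjusted p under 0.05. Of the 105 receptors 91 have means above 0 and 14 below, with Ir21a at -1.35 and Gr5a at -0.84 far below the rest.

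The clearest member was Ir21a, a subunit of the cool-sensing receptor of larval and adult thermosensory neurons. Its log2 ratios were -1.44, -1.04 and -1.56 on replicates 3, 4 and 6, which was below every other receptor on each array. The mean of -1.35 ± 0.27 (SD, n = 3; limma adjusted p = 8.37e-05) corresponds to a level 2.54-fold lower in the mutant, at percentile 2.04 of all features. Ir21a works with Ir25a and Ir93a, and neither of these fell with it. Ir25a had ratios of 0.22, 0.085 and 0.23 (mean 0.18, 95% interval 0.029 to 0.33, adjusted p = 0.0648). Ir93a, named after its values were seen, had ratios of 0.10, 0.024 and 0.20 (mean 0.11, interval -0.043 to 0.26, adjusted p = 0.228). The intervals of both partners lie above that of Ir21a, which is -1.59 to -1.10; the differences themselves were not tested.

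Next was Gr5a, the trehalose receptor of sugar-sensing taste neurons. It stood at -0.73, -0.89 and -0.89 on replicates 3, 4 and 6, with little spread. The mean was -0.84 ± 0.093 (SD, n = 3; limma adjusted p = 9.04e-05), a level 1.78-fold lower in the mutant. The calls of Ir21a and Gr5a were made under all 11 refits of the data, including each fit without a replicate and each centring. Not all of these refits could readily remove a call. Robust eBayes, single probes and features on at least 2 arrays left both means unchanged, and receptor centring moved both further below 0. The 3 other lower members had smaller means and did not pass without replicate 3. Gr59f, a taste receptor, was at -0.61, -0.28 and -0.38 (mean -0.42 ± 0.17, adjusted p = 0.00523; -0.33 without replicate 3). Or43b, a fruit ester receptor of antennal neurons, was at -0.45, -0.10 and -0.69 (mean -0.41 ± 0.29, adjusted p = 0.0226; -0.39 without replicate 3). Or56a, the geosmin receptor, was at -0.071, -0.27 and -0.37 (mean -0.24 ± 0.15, adjusted p = 0.044; -0.32 without replicate 3). The Or56a call was also absent on the values as deposited, without replicate 4 (-0.22) and without replicate 6 (-0.17). On replicate 4, where EcR itself had its lowest ratio, Ir21a, Gr59f and Or43b were each least low, whereas Gr5a and Or56a were lower there than on replicate 3. How this relates to the receptor values was not tested.

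The 14 higher members had small ratios, from 0.20 to 0.49. Gr89a, a receptor found broadly in bitter-sensing neurons, was highest with 0.39, 0.24 and 0.84 on replicates 3, 4 and 6 (mean 0.49 ± 0.31, SD, n = 3; limma adjusted p = 0.0139). Gr98a had ratios of 0.27, 0.53 and 0.24 (mean 0.35 ± 0.16, adjusted p = 0.0105). Ir92a, which tunes antennal neurons to ammonia and amines, had ratios of 0.25, 0.33 and 0.33 (mean 0.30 ± 0.044, adjusted p = 0.00674). These 3 genes, which had the largest means of the 14, stayed higher when the arrays were centred on the receptors, and the 11 others did not. That centring lowers every ratio on an array by the same amount, so calls with small means are lost most readily. Ir92a was the 1 higher receptor that passed without replicate 3. In that fit Gr89a was at 0.54 (adjusted p = 0.0693) and Gr98a at 0.39 (adjusted p = 0.056).

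**Figure D2:**
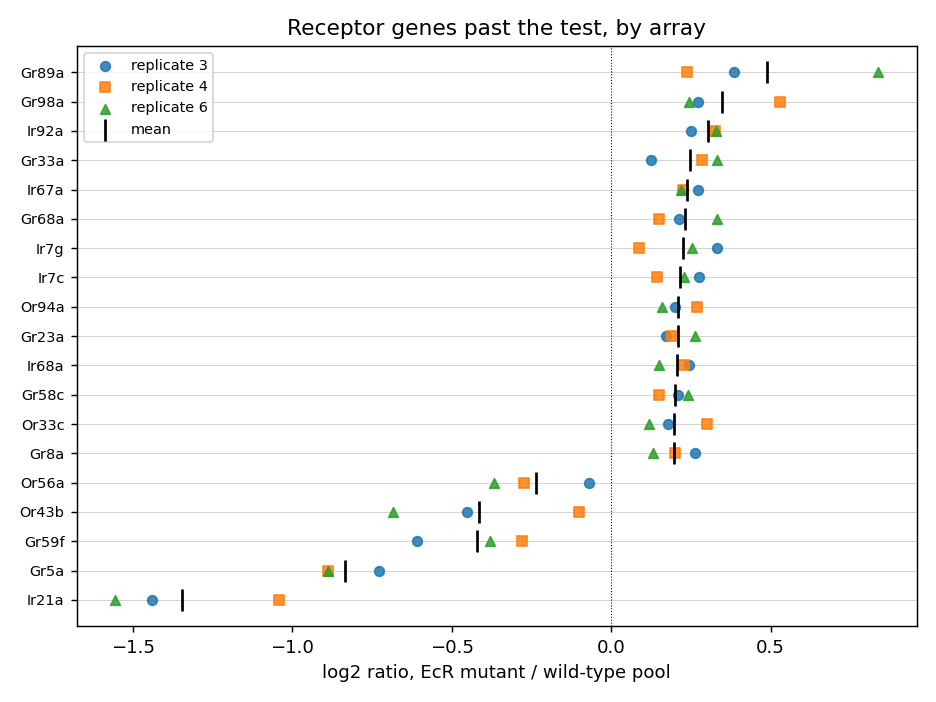
Log2 ratio of EcR mutant over wild-type pool (horizontal axis) on each of the 3 arrays for the 19 receptor genes past the limma test, sorted by mean (black tick). All 19 have the same sign on every array, and 14 of them have means between 0.20 and 0.49.

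The families differed little in their medians. The median log2 ratio was 0.13 for Gr, 0.090 for Ir and 0.088 for Or genes. The Gr median was above the Or median on each array, by 0.035, 0.055 and 0.054 on replicates 3, 4 and 6. It was above the Ir median by 0.022, 0.086 and 0.018. Ir and Or medians had no steady order, with differences of 0.014, -0.031 and 0.036. Whether the medians differ was not tested, since genes of a family are not replicates.

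**Figure D3:**
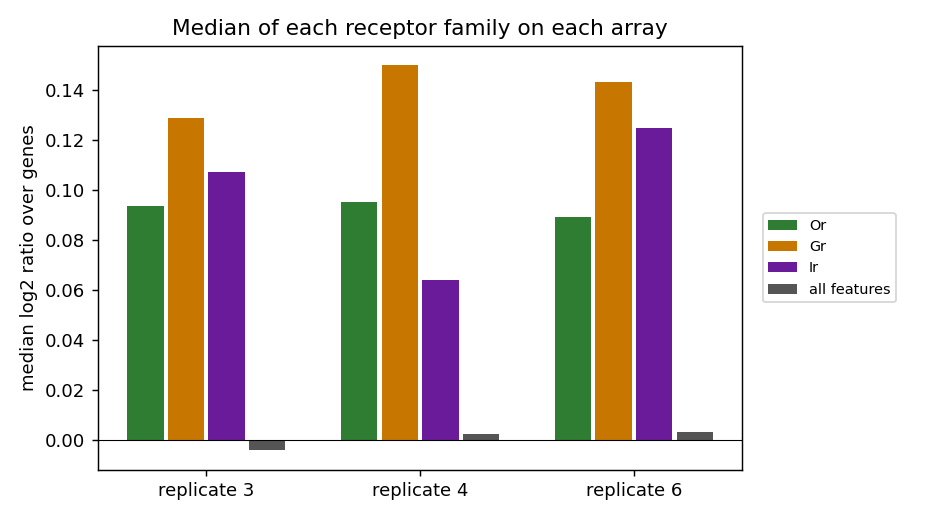
Median log2 ratio (vertical axis) over the 48 Or, 21 Gr and 36 Ir genes and over all 13026 features on each array. The bars of all 3 families lie between 0.064 and 0.15 on every array, and those of all features lie within 0.0041 of 0.

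Calls were made in each family. The 21 Gr genes held 7 higher and 2 lower calls, and 12 genes did not pass. The 36 Ir genes held 5 higher calls and 1 lower call, with 30 not past the threshold, and the 48 Or genes held 2 higher and 2 lower calls, with 44 not past it. In percent of each family, 42.9% of Gr, 16.7% of Ir and 8.33% of Or genes were called in either direction, against 37% of all features. By direction, 33.3% of Gr, 13.9% of Ir and 4.17% of Or genes were higher, against 13.4% of all features, and 9.52% of Gr, 2.78% of Ir and 4.17% of Or genes were lower, against 23.7%. On the values as deposited, where 23.3% of all features were higher, the higher calls were 9 of 21 Gr, 13 of 36 Ir and 13 of 48 Or genes. Whether the families differ was not tested.

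Among the Gr genes, sugar receptors other than Gr5a lay at the centre of the arrays. Of 9 genes in the sugar list, 4 were measured, with 1 lower and 0 higher, where 23.7% of all features were lower and 13.4% higher. Gr43a, a fructose receptor of taste neurons, brain and gut, had ratios of 0.0027, 0.13 and 0.036 on replicates 3, 4 and 6 (mean 0.056, 95% interval -0.089 to 0.20, limma adjusted p = 0.506). Gr61a, a glucose receptor, had ratios of 0.14, -0.084 and -0.029 (adjusted p = 0.92). Gr64d, of the sugar receptor cluster, had ratios of 0.13, 0.0013 and 0.051 (adjusted p = 0.472). The intervals of these 3 genes reach no further than -0.15 to 0.20, so a decrease as large as that of Gr5a lies outside each of them.

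The bitter receptor list showed small positive ratios. Of 5 genes, 4 were measured, 2 were higher and 0 lower, with a median of 0.21, where 13.4% of all features were higher and 23.7% lower. Besides Gr89a, Gr33a was higher, with ratios of 0.13, 0.29 and 0.33 (mean 0.25 ± 0.11, SD, n = 3; limma adjusted p = 0.025). Gr33a acts broadly in bitter taste and is also known from enteroendocrine cells of the gut. Gr32a at 0.11 and Gr66a at 0.18, named after their values were seen, did not pass (adjusted p = 0.22 and 0.0595). Of the 5 Gr genes listed for enteroendocrine cells, Gr33a and Gr43a were measured, and Gr28a, Gr28b and Gr64a were not among the genes tested. The Gr33a call was absent in each fit that left out a replicate, with means from 0.21 to 0.31, and on receptor centring (0.15). Of 8 enteroendocrine markers tested 2 were higher and 0 lower (median 0.13), beside the same shares of all features. The higher ones were the hormone genes CCHa2 at 0.73 and Dh31 at 0.30, picked out after their values were seen. The 6 others did not pass and ran from -0.061 for Orcokinin to 0.21 for Mip, with pros at 0.10 and CCHa1 at 0.00081. The part of enteroendocrine cells in the Gr values was not tested.

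Both carbon dioxide receptor subunits were measured and did not pass. Gr21a had ratios of 0.011, 0.21 and 0.15 (mean 0.13, limma adjusted p = 0.182). Gr63a, its obligate partner, had ratios of -0.054, 0.19 and 0.56, the widest spread of the Gr genes together with Gr89a (mean 0.23 ± 0.31, SD, n = 3; adjusted p = 0.151). The arrays did not settle a direction for either subunit. The remaining higher Gr genes were Gr68a, known from male courtship, at 0.23, Gr23a at 0.21, Gr58c at 0.20 and Gr8a, a receptor for the plant toxin canavanine, at 0.20. Their lowest ratio on any array was 0.13, for Gr8a on replicate 6. The call of each was absent without replicate 3, without replicate 6 and on receptor centring, and those of Gr23a and Gr8a also without replicate 4. The means of these 4 genes without a replicate ran from 0.17 for Gr8a to 0.27 for Gr68a.

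Of the 3 Ir co-receptors listed, 2 were measured and neither passed. Ir76b, a co-receptor for amines, amino acids and salt, had ratios of 0.14, 0.12 and 0.21 (mean 0.15, 95% interval 0.013 to 0.29, limma adjusted p = 0.0843). Like Ir25a it passed on the values as deposited (adjusted p = 0.0289 for Ir76b and 0.0228 for Ir25a). Ir8a was not among the genes tested. Of 14 antennal Ir genes listed, 10 were measured, with 2 higher, 1 lower (Ir21a) and a median of 0.059. The shares of all features were 13.4% higher and 23.7% lower. Ir68a, a humidity receptor subunit, was higher at 0.24, 0.23 and 0.15 (adjusted p = 0.0323), a call absent without any single replicate (means 0.19 to 0.24).

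The lowest Ir genes after Ir21a stood far above it. Ir41a, a polyamine receptor, had ratios of -0.21, -0.15 and -0.019, and Ir75a, an acid receptor, had -0.27, -0.059 and 0.20. Neither passed (limma adjusted p = 0.169 and 0.749). The 3 other higher Ir genes were Ir67a at 0.24, Ir7g at 0.22 and Ir7c, a salt receptor subunit, at 0.22. Their ratios on single arrays ran from 0.086 to 0.33, all above 0. None of the 3 passed without replicate 3 (0.22 for Ir67a, 0.17 for Ir7g and 0.19 for Ir7c) or on receptor centring, and Ir7g and Ir7c did not pass without replicate 6 (0.21 for each).

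The Or genes had the narrowest interquartile range, 0.096 against 0.15 for Gr and 0.13 for Ir genes. Their means ran from -0.41 to 0.21, and 47 of 48 lay within 0.25 of 0. Orco, the co-receptor that all of them need and which the symbol rule did not include, had ratios of 0.21, 0.013 and 0.13 (mean 0.12, 95% interval -0.036 to 0.27, limma adjusted p = 0.198). The 2 higher members were Or94a, a receptor of the larval nose, with ratios of 0.20, 0.27 and 0.16, and Or33c, of the adult maxillary palp, with 0.18, 0.30 and 0.12. Both calls (adjusted p = 0.0316 and 0.0488) were absent when any single replicate was left out (means 0.18 to 0.23 for Or94a and 0.15 to 0.24 for Or33c) and on receptor centring, and that of Or33c also with each probe fitted on its own (adjusted p = 0.051). Or67a followed with ratios of 0.077, 0.19 and 0.32 and did not pass (adjusted p = 0.0641). Or67d, the receptor for the male pheromone cis-vaccenyl acetate, had ratios of -0.066, -0.36 and -0.13, below 0 on each array, and did not pass (adjusted p = 0.0965).

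Receptors of the larval nose had values like those of the whole family. Of 25 Or genes listed for the larval olfactory organ, 22 were measured, with 1 higher, 0 lower and a median of 0.088, the same as the whole family to this precision. The means of the 22 ran from -0.15 to 0.21. Of all features 13.4% were higher and 23.7% lower.

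The order of the receptors was less alike between arrays than the order of all features. Spearman's rho across the 105 genes was 0.30 between replicates 3 and 4, 0.35 between replicates 3 and 6, and 0.34 between replicates 4 and 6. Across all 13026 features it was 0.76, 0.84 and 0.76. By family, rho ran from 0.071 to 0.22 for Or, from 0.25 to 0.46 for Ir and from 0.41 to 0.59 for Gr genes. Pearson's r was 0.86, 0.88 and 0.84 across the 36 Ir genes, but 0.44, 0.32 and 0.19 across the 35 without Ir21a. Genes are not independent replicates, the arrays share a pool and a dye orientation, and a set of genes with a narrow range gives lower correlations. The median SD between arrays was 0.092 for receptors and 0.10 for all features, so the receptors were measured with about the usual spread.

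The genes that overlap a receptor gene were compared with it, since a receptor gene is small and can lie within or across another gene. All 105 members were found in the annotation, and the spans of 29 overlap a protein-coding gene. For 16 receptors at least 1 overlapping gene was tested, giving 18 pairs with 17 other genes. Of these genes 4 were lower and 0 higher in the mutant, where 23.7% of all features were lower and 13.4% higher. Or43b overlaps Cul1, the scaffold of the SCF ubiquitin ligases, which had ratios of -1.87, -1.43 and -1.89 (mean -1.73 ± 0.26, SD, n = 3; limma adjusted p = 2.56e-05). Both were least low on replicate 4, where Or43b was at -0.10. This was not particular to the pair, since Ir21a and Gr59f were also least low on that array. Or67b overlaps Cyp40, a cyclophilin at -1.03 ± 0.12 (adjusted p = 4.71e-05), and was itself at -0.15 without passing (named after its value was seen). The other lower genes were Pif1A at -0.40 beside Ir85a at 0.081, and CG6230 at -0.23 beside Gr32a at 0.11. Strand and probe sequence were not used here, so whether an Or43b or Or67b probe also detects RNA of the overlapping gene was not tested.

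**Figure D4:**
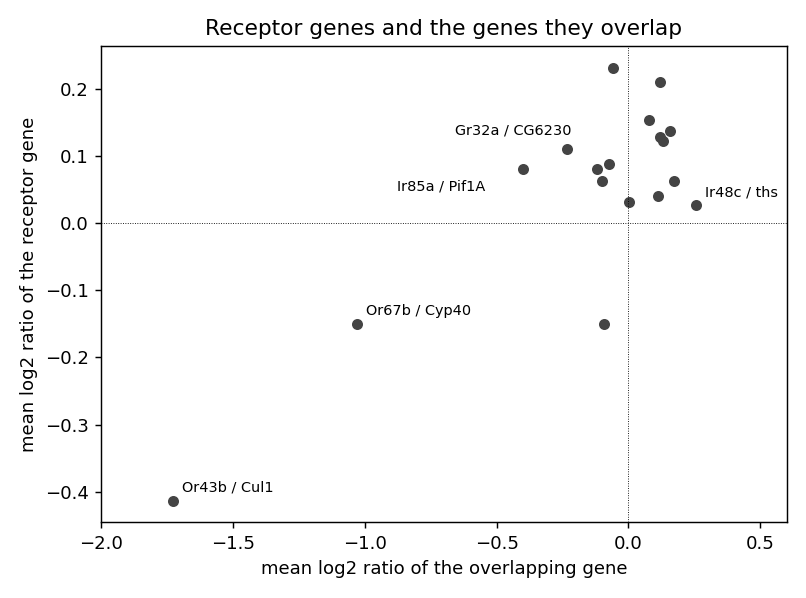
Mean log2 ratio of a receptor gene (vertical axis) against that of a protein-coding gene whose span it overlaps (horizontal axis), for the 18 pairs with both tested. Or43b and Or67b, the receptors with negative means, overlap Cul1 and Cyp40 at -1.73 and -1.03, and the other receptors lie above 0.

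Ir21a and Gr5a overlapped no other protein-coding gene. Each overlaps an annotated antisense RNA, asRNA:CR43609 for Ir21a and asRNA:CR44958 for Gr5a, and whether the probes also detect these was not tested. The neighbour of Ir21a that was tested, l(2)gl, a regulator of cell polarity, went the other way, with ratios of 0.74, 0.80 and 0.38 (mean 0.64 ± 0.23, SD, n = 3; limma adjusted p = 0.00161). The genes on either side of Gr5a, Tre1 and CG42449, were not among the features tested, nor was Cda5 on the far side of Ir21a. Gr59f lies next to Gr59e, a receptor with ratios of -0.038, -0.0054 and 0.20 (mean 0.053, adjusted p = 0.587), so the pair differed in mean by 0.48. Beside Or43b, CG12159 was lower at -0.27 and Kdm4A, a histone demethylase, stood at 0.024 without passing. The genes next to Or56a lie farther off. CG8517, at a gap of 54592 bp, was higher at 0.23, and Obp56g, at 12250 bp, stood at 0.092 and did not pass.

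The genes beside the 14 higher receptors were called in both directions. Of 17 genes outside the families that lie next to or overlap them and were tested, 1 was higher, 3 were lower and 13, with means from -0.083 to 0.18, did not pass, where 13.4% of all features were higher and 23.7% lower. The higher gene was Muc68D, a mucin 14824 bp from Gr68a, at 0.22 (limma adjusted p = 0.0408). The lower genes were CG9304 at -1.08, 275 bp from Gr58c, and the metallothionein gene MtnC at -1.16, 16405 bp from Ir92a. Also lower was scyl, an inhibitor of growth signalling, at -0.52 and 16088 bp from Ir68a. The receptors were picked as higher and these 3 genes as lower, so their opposite signs follow from the choice.

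Receptors that lie close together mostly had like values. There were 13 pairs of members in order along a chromosome within 5 kb, and their means differed by a median of 0.031, against 0.090 over all 5460 pairs of receptors. Except for Gr10b and Or10a the close pairs are of the same family, whereas the 5460 pairs mix families and include Ir21a and Gr5a. Pairs of the same family lying farther apart were not compared, so closeness and family cannot be told apart. Or33a and Or33b differed by 0.0024, Or22a and Or22b by 0.020, and Ir56c and Ir56d by 0.0067, pairs named after their values were seen. Gr59e and Gr59f were the pair farthest apart. Neighbouring receptors are often recent duplicates with similar sequence, and whether their probes detect each other's RNA was not tested.

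Genes listed as possible partners of the receptors, outside the 3 families, were also measured. Odorant-binding proteins carry odours through the fluid around sensory neurons, and several are made outside sense organs. The 31 measured had a median of 0.063, with 3 higher and 4 lower calls and 24 genes not past the threshold, where 13.4% of all features were higher and 23.7% lower. Obp99b was at -1.55, -0.73 and -1.81 (mean -1.36 ± 0.56, SD, n = 3; limma adjusted p = 0.00123) and Obp99c at -1.01, -0.46 and -1.02 (mean -0.83, adjusted p = 0.00142), while Obp46a was higher at 0.59, 0.40 and 0.78 (mean 0.59, adjusted p = 0.00142). Fat body genes were also lower, with 3 of 3 tested lower and a median of -0.92, led by Fbp1 at -1.01, and the part of fat body RNA in these values was not tested.

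Of 9 signalling and accessory genes tested, 3 were lower and 0 higher, beside the same shares of all features. Galphao, a G protein subunit, stood at -0.56, -0.36 and -0.49 (mean -0.47 ± 0.10, SD, n = 3; limma adjusted p = 0.00145). The other lower genes, named after their values were seen, were Galphaq at -0.42 and the phospholipase C gene Plc21C at -0.37, both of which serve signalling in many tissues. Whether these genes act with a receptor in the midgut was not tested. Of 8 muscle genes listed 4 were tested, with 2 higher and 0 lower, where 13.4% of all features were higher and 23.7% lower. Hemocyte genes were split, with 1 higher and 1 lower of 4. The part of muscle and hemocyte RNA in the receptor values was not tested.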

How the data were processed

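The deposited values are log2 ratios, 1 per probe and array for 20000 probes. Per the labels the total RNA went through in vitro transcription for amplification, and mutant RNA carried Cy5 and the pool Cy3 on every array, which leaves any dye effect in the means. For scanner software, background correction and spot filters nothing is given in the sources used here. That the scale is log2 was tested on values under 1.5. After adding a constant found for each array, 2 to that power fell on steps of 0.001 for 100% of them, within 0.02 of a step. The number of arrays limits the precision. Of the probes, 10828 had 1 gene symbol, 227 several and 8945 none, and 10824 matched the Release 6 plus ISO1 MT gene table. That table was used only for names, gene positions (order, overlaps and gaps) and gene types (protein-coding or not).

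The median of each array was subtracted from it and a gene's probes were averaged. Each feature's mean ratio was then tested against 0 (two-sided) by limma 3.58.1 in R 4.3.3, using lmFit and eBayes with 6.89 degrees of freedom. Benjamini-Hochberg adjustment ran over 13026 features, with a threshold of 0.05. The pool counts as 1 control sample, and its spread is left out. The procedure was tested on simulated data. The members, lists and the naming rule were chosen with earlier results of these data known. The rule names each member that passed and had 1 sign throughout (up to 15 in each direction), the 3 highest and 3 lowest per family, measured members of the enteroendocrine, co-receptor, carbon dioxide and sugar lists, Orco, up to 4 partner genes, and genes next to or overlapping called members. Alternatives were values as deposited, centring on named probes, quantile normalization, scaling to 1 spread, robust eBayes, leaving out each replicate, stricter thresholds, single probes and features on at least 2 arrays. Centring on the receptor probes was added after seeing the data. Tables and figures were made in Python 3.11.15 (numpy 2.4.6, pandas 2.3.3, matplotlib 3.10.9, scipy 1.17.1).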

Additional observations from a re-analysis of the deposited data

How the results depend on the processing

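No paired analysis was possible because the arrays form 1 group against 1 pool. As deposited, 13 Or and 13 Ir genes were higher (35 receptors in all) and 1 Or gene was lower, and the medians were 0.15 for Or, 0.19 for Gr, 0.15 for Ir and 0.15 for all receptors. Centred on the receptors, 0 Or, 2 Gr and 1 Ir genes were higher (3 in all) and 4 Or and 2 Ir genes lower (8 in all). Centring on named probes gave an Or median of 0.094, and quantile normalization gave 4 higher Or genes and an Or median of 0.092. With each probe on its own 1 Or gene was higher. At an adjusted p under 0.01, 0 Or, 0 Gr and 1 Ir genes were higher (1 in all), and 0 Or genes were lower (3 receptors in all). With a change of at least 1.5-fold as well, 0 genes of any family were higher and 0 Or and 1 Gr genes lower (2 in all). With fewer arrays no family had more calls. Leaving out 1 replicate gave 0 to 1 higher and 0 to 1 lower Or genes, 0 to 4 higher and 1 to 2 lower Gr genes, 1 to 5 higher Ir genes, and 1 to 10 higher and 2 to 4 lower receptors in all. The lowest counts over all receptors, 1 higher and 2 lower, came without replicate 3, and without replicate 6 there were 4 higher calls. The Or median was then 0.086 to 0.10 and the Gr median 0.12 to 0.18. The shares of all features called with a replicate left out, or at an adjusted p under 0.01, are not given here. Fewer receptor calls under these settings therefore cannot be told apart from fewer calls over all features. The cause of the differences between settings was not tested. No receptor that passed changed sign under any of these settings. Without intensities, how far each receptor signal lay above background is unknown, which limits every value near 0.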
